A study of Mus musculus with 10 samples.

Results

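The immediate early and stress response genes described here are *Fos*, *Fosb*, *Jun*, *Junb*, *Egr1*, *Egr3*, *Atf3*, *Ier2*, *Hspa1a* and *Hspa1b*, 10 of the 32285 genes in the deposited tables. They were picked by name with their values in these data in view, so the levels below are a description, given by stage and lineage in single cells of the mouse lower jaw. The cells came from wild type NMRI embryos, as whole mandibles at E11.5 and as buds of the lower incisor for the E14.5 and the E16.5 libraries. Each sample was digested with warm Collagenase P and pipetted to single cells before droplet capture. The labels list 4, 4 and 2 samples for the stages in order, and each stage was deposited as 1 pooled table whose barcodes could not be assigned to a sample. Each stage was therefore 1 sample with no replicates, and no test was possible. Stage, dissected tissue, handling and the sex of the embryos cannot be told apart. A level is given in CPM, the unique molecular identifiers (UMIs, which count captured RNA molecules) of a gene after the summed UMIs of a group of cells were scaled to 1000000. The ranges in parentheses are 95% intervals that cover counting error only.

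Immediate early genes are switched on within minutes of a stimulus, without new protein synthesis, and most encode transcription factors that then set off later programmes. *Fos*, *Fosb*, *Jun* and *Junb* encode subunits of AP-1, a dimeric factor that answers to growth factors and to stress, while *Egr1* and *Egr3* encode zinc finger factors downstream of the same kinases. *Atf3* encodes a stress-induced factor of the ATF family, *Ier2* a nuclear protein of the early response, and *Hspa1a* and *Hspa1b* the inducible Hsp70 chaperones, which heat shock factor induces when proteins unfold. In developing tissue such genes can answer to signals in the embryo, and in cell suspensions they are also known to be induced by enzymatic dissociation.

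Of 8708, 8192 and 5719 barcodes of the 3 stages, 6573, 6091 and 4511 cells had at least 700 genes and at most 20% of UMIs from mitochondrial genes. Their median depth was 5664, 3471 and 6260 UMIs, and the stages shared 13 to 17 barcodes pairwise. Over all barcodes, the Y chromosome gene *Ddx3y* had 0, 588 and 720 UMIs in the same order. Male cells were thus not seen in the youngest stage, and the part of embryo sex in the stage contrasts was not tested. Clusters were named from marker lists, as mesenchyme-like, epithelium-like and so on, and are called by the short name from here on. Mesenchyme held 6003, 4610 and 2531 cells and epithelium 991 and 1757 cells at the later stages. No cluster was named epithelium at E11.5. Endothelium held 236, 168 and 125 cells, immune cells 65, 129 and 26, and erythroid cells 139, 146 and 45. Small groups were muscle at E11.5 (130 cells), glia at E14.5 (47) and mural cells at E16.5 (27). The muscle group held 1219 CPM of muscle and 365 CPM of epithelial markers, against 8.90 CPM of epithelial markers in the mesenchyme of E11.5. Epithelial cells in that group were thus not separated, and their part in its levels and ratios was not tested. Erythroid cells served as the measure of free RNA, a use that was not tested. At E14.5 they held 313 CPM of epithelial and 1899 CPM of mesenchymal markers, and up to 20 *Atf3* UMIs in a cell. Their own expression and mixed droplets were therefore not separated from free RNA. The mesenchyme of that stage held less, at 75.3 CPM of epithelial markers and 9.78 CPM of *Atf3*, against 76.9 CPM of *Atf3* in erythroid cells. The erythroid level can thus lie above that of free RNA. A level or share no higher than it does not show that expression is absent. Globin took 33.5% to 39.8% of the UMIs of erythroid cells, which lowers the CPM of every other gene in them.

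Promoter sequence was available for 7 of the 10 genes, from RefSeq on GRCm38.p6, as the 250 bases before the gene start that RefSeq gives. The 4 below are shown because they belong to the genes with the largest contrasts described here, and because the *Hspa1a* and *Hspa1b* windows are nearly the same. Capitals mark GAANNTTC or TTCNNGAA, a unit of the heat shock element, in the *Hspa1* windows, and TGACG, the core of the cAMP response element, or its reverse complement CGTCA in the other windows.
Hspa1a (chr17:34972157-34972406, minus strand): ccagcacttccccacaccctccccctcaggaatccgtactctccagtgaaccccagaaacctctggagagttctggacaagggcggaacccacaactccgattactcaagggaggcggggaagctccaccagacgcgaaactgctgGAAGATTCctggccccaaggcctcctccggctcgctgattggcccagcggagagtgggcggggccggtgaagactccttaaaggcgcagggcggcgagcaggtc
Hspa1b (chr17:34959239-34959488, minus strand): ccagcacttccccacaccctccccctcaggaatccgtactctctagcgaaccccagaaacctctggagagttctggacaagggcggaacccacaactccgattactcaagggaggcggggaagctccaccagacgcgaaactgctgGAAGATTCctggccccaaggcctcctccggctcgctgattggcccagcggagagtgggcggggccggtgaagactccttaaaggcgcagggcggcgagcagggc
Fos (chr12:85473640-85473889, plus strand): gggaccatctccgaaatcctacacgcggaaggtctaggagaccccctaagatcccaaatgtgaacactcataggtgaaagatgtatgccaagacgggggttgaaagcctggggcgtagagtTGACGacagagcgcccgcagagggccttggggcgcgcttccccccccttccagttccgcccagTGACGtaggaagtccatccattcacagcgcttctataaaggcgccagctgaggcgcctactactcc
Atf3 (chr1:191183334-191183583, minus strand): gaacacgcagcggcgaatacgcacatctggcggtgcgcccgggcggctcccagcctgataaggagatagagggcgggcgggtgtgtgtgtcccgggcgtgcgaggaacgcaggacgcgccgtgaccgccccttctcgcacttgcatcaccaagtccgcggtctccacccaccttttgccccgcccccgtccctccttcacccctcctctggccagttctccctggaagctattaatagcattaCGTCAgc

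The *Hspa1a* and *Hspa1b* windows differed by 3 edits and shared an unbroken run of 201 bases, and in both a heat shock element unit stood 104 bases before the gene start. The genes lie 9951 bases apart on chromosome 17. Runs of 91 bases were shared by 49.08% of the *Hspa1a* and 52.05% of the *Hspa1b* transcript, but by 0% of the last 500 bases, where reads from the 3′ end of the RNA fall. The unit occurred in 12.84% of 32851 promoter windows, and among the other windows printed or searched only *Jun* held it, 128 bases before its start. The core TGACG was at 129 and 66 bases before *Fos*, 60 before *Fosb* and 106 before *Junb*, and as CGTCA at 7 bases before the RefSeq start of *Atf3*. That start lies inside the span of *Atf3* given below, chromosome 1, 191170296 to 191218039. The core occurred in 17.77% of windows. On both strands, neither TGANTCA, an AP-1 site, nor the CArG box was found in the 7 windows. Bases further upstream and variants of these sites were not searched, and *Egr1*, *Egr3* and *Ier2* had no window. A match is a run of letters and no measure of binding.

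Most of the genes were far lower at E11.5 than at the later stages. In mesenchyme the 8 early response genes summed to 202 CPM (197 to 206) at E11.5 and 912 CPM (898 to 926) at E14.5, and reached 1587 CPM (1569 to 1605) in the E16.5 cells. The *Hspa1* pair summed to 5.45 CPM (4.78 to 6.19), 156 CPM (150.2 to 162) and 231 CPM (224 to 238). On the log2 scale, with 10 CPM added to both sides, E14.5 was higher than E11.5 by 2.12 (2.09 to 2.16) for the early response sum and 3.42 (3.35 to 3.50) for the *Hspa1* sum. The size of the latter depends on the CPM added, with 4.60 for 1 CPM and 1.89 for 50 CPM. Of the 10 genes, 8 were at least 2-fold higher at E14.5 and 0 lower, where 2.8% of all 12772 genes with at least 50 UMIs were higher and 1.92% lower by that much. The background of E16.5 over E14.5 was 1.21% higher and 0.376% lower, and there 4 of the genes were higher and 1 lower, none of which passed 2-fold with 50 CPM added. For E14.5 over E11.5 the count of 8 became 6 with 50 CPM added, without *Fosb* and *Junb*, and 9 with 1 CPM added, with *Atf3*. Erythroid cells, used as the measure of free RNA, had the stage difference too. Their early response sum was 86.9, 710.3 and 599 CPM over the stages, and 131, 1125 and 996 with globin left out. The part of free RNA in the levels of the other lineages was not tested.

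**Figure D1:**
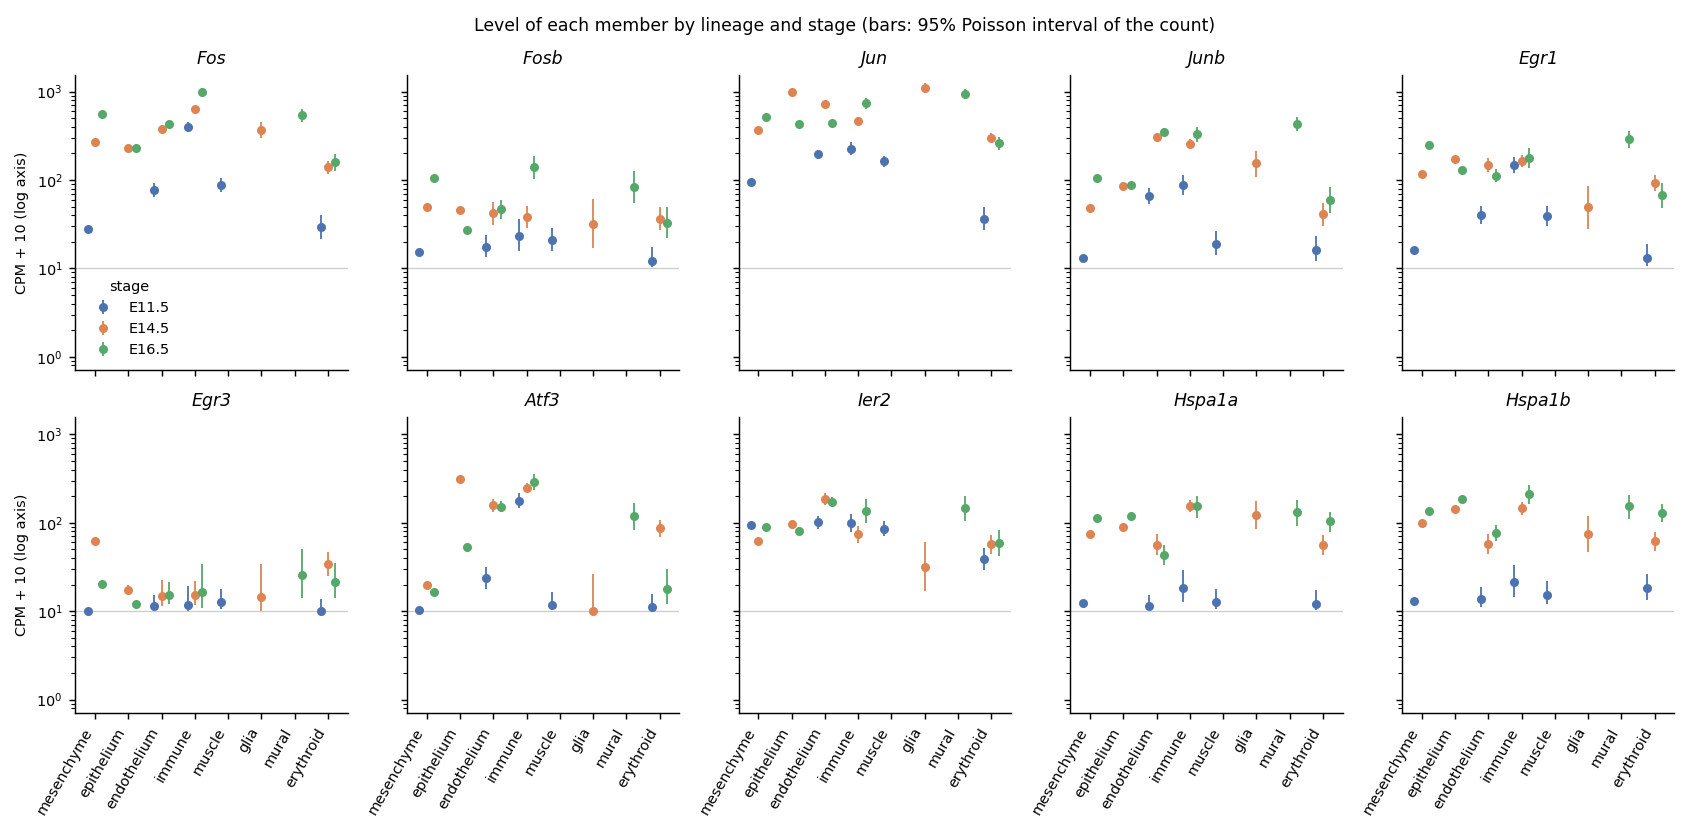
Level of each gene in each lineage at the 3 stages, as CPM plus 10 on a log axis, with bars for the 95% Poisson interval of the count. E11.5 (blue) is low in mesenchyme for every gene but *Jun* and *Ier2*, while *Egr3* stands out in E14.5 mesenchyme and *Atf3* in E14.5 epithelium.

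*Fos* (ENSMUSG00000021250; GRCm38 chromosome 12, 85473890 to 85477273) was at 18.0 CPM (16.7 to 19.3) in E11.5 mesenchyme, then 257 CPM (249.9 to 265) and 542 CPM (532 to 553) at the later stages. It was already at 389.7 CPM (342 to 442) in the immune cells of E11.5, above every other lineage there, and at 66.8 CPM in endothelium and 77.8 in muscle. In epithelium it did not differ between stages beyond counting error, at 218 CPM (207 to 229) and 221 CPM (214 to 228). With each cell thinned to 2000 UMIs, a *Fos* UMI was in 2.997%, 32.3% and 42.4% of mesenchymal cells over the stages, against 5.83%, 18.1% and 22.2% of erythroid cells, so the share at E11.5 is not read as expression. The epithelial shares, 23.1% and 21.1%, did not differ from those of erythroid cells beyond counting error. *Fosb*, a second Fos family subunit (chromosome 7, 19302696 to 19310051), was lower throughout. It was at 5.43, 39.0 and 96.5 CPM in mesenchyme over the 3 stages and went the other way in epithelium, from 35.7 CPM (31.4 to 40.4) to 17.3 CPM (15.5 to 19.3), the latter no higher than the 23.0 CPM of erythroid cells. Erythroid cells of E14.5 held 26.3 CPM, and 41.7 with globin left out. After thinning, a *Fosb* UMI was in 7.66% of mesenchymal and 5.56% (2.43 to 10.65) of erythroid cells of that stage, so the former is not read as expression. At E16.5 mesenchyme held *Fosb* at least 2-fold above the next of the lineages with 50 cells or more, where 9.37% of all genes had such a lead in some lineage. The 26 immune cells of that stage, not among these, held 129.8 CPM (92.3 to 177).

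*Jun*, the AP-1 partner of Fos proteins (chromosome 4, 95049034 to 95052222), was at 84.3 CPM (81.6 to 87.1), 357 CPM (348 to 366) and 513 CPM (503 to 523) in mesenchyme. Epithelium held 971 CPM (948 to 994) at E14.5 and 424 CPM (415 to 433) at E16.5, so the order of the 2 lineages turned over between these stages. The highest level was 1091 CPM (959.8 to 1235) in the 47 glial cells of E14.5. Erythroid cells held 26.6, 292 and 251 CPM over the stages, and with globin left out of their total 40.0, 463 and 417, of which that of E14.5 is above the mesenchyme of the stage. *Junb* (chromosome 8, 84974484 to 84978718), a Jun family subunit that can hold back Jun, was higher in endothelium and immune cells than in mesenchyme. Endothelium held 56.3 CPM (44.3 to 70.5), 296 CPM (259.9 to 335) and 342 CPM (309 to 377), and mesenchyme 2.97, 38.8 and 96.6 CPM. Erythroid cells of E14.5 held 30.7 CPM, and 48.7 with globin left out. After thinning, a *Junb* UMI was in 7.38% of mesenchymal and 6.25% (2.90 to 11.53) of erythroid cells of that stage, so the former is not read as expression. Endothelium was above mesenchyme by log2 2.35 (2.08 to 2.61), 2.65 (2.45 to 2.84) and 1.72 (1.57 to 1.87). Immune cells held 247 CPM at E14.5, and the mural cells of E16.5 421 CPM (345 to 508).

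*Egr1* (chromosome 18, 34859823 to 34864984) was at 6.16 CPM (5.45 to 6.95), 106 CPM (101 to 111) and 241 CPM (234 to 248) in mesenchyme and at 165 CPM (156 to 175) and 120.2 CPM (115 to 125) in epithelium. Immune cells differed little across stages, from 139 CPM (111 to 172) at E11.5 to 169.7 CPM (126 to 223) at E16.5, and their intervals overlapped. Erythroid cells held 83.4 CPM (65.7 to 104) at E14.5, which overlaps the mesenchyme of that stage, and 57.4 CPM at E16.5, and with globin left out 132 and 95.5 CPM. *Egr3* (chromosome 14, 70077203 to 70082614) had a pattern of its own. It was at 0.092 CPM (0.0251 to 0.236) in mesenchyme at E11.5, 52.6 CPM (49.3 to 56.1) at E14.5 and 10.4 CPM (9.03 to 12.0) in the E16.5 cells, where erythroid cells held 11.49 CPM. At E14.5 epithelium held 7.55 CPM (5.65 to 9.87), endothelium 4.79 CPM (1.30 to 12.3) and immune cells 5.18 CPM (1.68 to 12.1). Mesenchyme was the highest of these 4 lineages by at least 2-fold, where 10.3% of all genes had such a lead in some lineage. Erythroid cells held 24.2 CPM (15.1 to 36.6), and 38.3 with globin left out. With 10 CPM added, mesenchyme was less than 2-fold above them. Their level is above the epithelium, so the epithelial level is not read as expression. After thinning an *Egr3* UMI was in 6.34% (5.60 to 7.15) of mesenchymal and 2.08% (0.432 to 5.97) of erythroid cells, intervals that overlap.

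*Atf3* (chromosome 1, 191170296 to 191218039) was uneven between lineages at every stage. In mesenchyme it was at 0.207 CPM (0.0947 to 0.393), 9.78 CPM (8.38 to 11.3) and 6.48 CPM (5.38 to 7.75). Epithelium held 300.1 CPM (287 to 313) at E14.5 and 43.3 CPM (40.4 to 46.4) at E16.5. Endothelium held 13.5 CPM (8.002 to 21.3), 148 CPM (123 to 177) and 142 CPM (121 to 166), and immune cells 169 CPM (138 to 205), 240.1 CPM (210.2 to 273) and 279.5 CPM (223 to 346). The glial cells of E14.5 had 0 UMIs, which allows up to 16.1 CPM. Erythroid cells of E14.5 held 76.9 CPM (59.9 to 97.1), above the mesenchyme of that stage. After thinning, an *Atf3* UMI was in 24.1% (21.2 to 27.1) of epithelial, 6.25% (2.90 to 11.53) of erythroid and 1.76% (1.37 to 2.22) of mesenchymal cells, so the mesenchymal share is not read as expression.

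*Ier2* (chromosome 8, 84661331 to 84662852) did not follow the stage contrast. It was at 84.3 CPM (81.6 to 87.1) in E11.5 mesenchyme, 51.6 CPM (48.3 to 55.1) at E14.5 and 80.2 CPM (76.2 to 84.4) in the E16.5 cells. At E11.5 its level lay between 76.0 and 90.8 CPM in mesenchyme, endothelium, immune cells and muscle, with overlapping intervals. Endothelium was the highest of the larger lineages at the later stages, at 175 CPM (148 to 205) and 163 CPM (140.4 to 188). After thinning, its share of mesenchymal cells at E14.5 was 9.93% and that of erythroid cells 10.4%, so the former is not read as expression.

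*Hspa1a* (chromosome 17, 34969190 to 34972156) and *Hspa1b* (chromosome 17, 34956436 to 34959238) had like levels. In mesenchyme *Hspa1a* was at 2.35, 65.4 and 103 CPM and *Hspa1b* at 3.11, 90.5 and 127. Their sum at E11.5 was 5.45 CPM in mesenchyme, 5.25 in endothelium, 8.05 in muscle and 19.6 in immune cells. At E14.5 it was 156 CPM (150.2 to 162) in mesenchyme, 212 CPM (201 to 223) in epithelium, 94.5 CPM (74.9 to 118) in endothelium and 281 CPM (248 to 316) in immune cells. At E16.5 the same lineages held 231, 286, 99.9 and 343 CPM. Endothelium was the lowest of the 4 at both later stages. Erythroid cells held 97.7 CPM (78.5 to 120.2) at E14.5 and 213 CPM (175 to 256) at E16.5, and with globin left out of their total 155 and 353 CPM. After thinning, an *Hspa1* UMI was in 1.22%, 16.3% and 22.3% of mesenchymal cells over the stages and in 3.33%, 13.2% and 26.7% of erythroid cells. Of mesenchyme, epithelium, endothelium and immune cells, those whose share lay above that of erythroid cells beyond counting error were epithelium, at 23.2% (20.4 to 26.3), and immune cells, at 29.3% (21.4 to 38.1), both at E14.5, against 13.2% (8.13 to 19.8). In the other groups of the 4 lineages, all of E11.5 and E16.5 among them, free RNA was not separated from expression. Over 13 groups of stage and lineage with at least 50 cells, log2 levels of the pair had a Pearson's r of 0.98, as a description. These groups share stages and depth.

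To ask which signal was common to the lineages, each was set against its own E11.5 level. The endothelium of E11.5 was a less pure and shallower group than that of E14.5. It held 2149 CPM of endothelial and 180 CPM of glial markers, against 4049 and 4.79 CPM. Its median depth was 1883.5 UMIs, against 3722.5. The part of these differences in its ratios, here and below, was not tested. *Jun*, *Junb*, *Hspa1a* and *Hspa1b* were at least 2-fold higher at E14.5 in mesenchyme, endothelium and immune cells alike, 4 of 10 genes, counting genes with at least 50 UMIs over all these groups, where 0.212% of all genes were. The ratio of *Jun* in immune cells was 1.05 (0.78 to 1.33), an interval that spans 2-fold, and the *Hspa1* sum of E11.5 endothelium rests on 7 UMIs. Erythroid cells, from E11.5 to E14.5, were higher as well, from 26.6 to 292 CPM for *Jun*, 6.14 to 30.7 for *Junb*, 2.05 to 46.1 for *Hspa1a* and 8.18 to 51.6 for *Hspa1b*, so a part of free RNA in what the lineages share was not separated. They were also at 19.4 and 129.5 CPM of *Fos* and 3.07 and 83.4 of *Egr1*. *Fos*, *Fosb* and *Egr1* were so in mesenchyme and endothelium and not in immune cells. *Egr3* passed that fold in mesenchyme alone, *Atf3* in endothelium alone, and *Ier2* in none of the 3. With 1 CPM added, *Atf3* passed it in mesenchyme too, at levels of 0.207 and 9.78 CPM. With at least 50 UMIs asked of the lineage itself, 5 of 6 genes were higher in endothelium (background 2.53%), and in immune cells 4 of 8 (background 4.92%). *Fosb*, *Hspa1a* and *Hspa1b* did not reach that in endothelium, with 10, 2 and 5 UMIs at E11.5 and 27, 39 and 40 at E14.5. Of the 4 genes above, only *Jun* and *Junb* reached it in every lineage. *Egr3* had 4 and 5 UMIs in the endothelium and immune cells of E14.5, so its fold there is not resolved. At E16.5 over E11.5, 7 of the 10 genes were at least 2-fold higher in both mesenchyme and endothelium, where 0.9% of all genes were. The immune cells of E11.5 already held 1097 CPM (1015 to 1183) of the early response sum, against 1832 at E14.5, while their *Hspa1* sum was 19.6 and 281 CPM.

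Set against the mesenchyme of the same stage, the early response sum was higher in immune cells by log2 2.39 (2.27 to 2.50) at E11.5 and 0.998 (0.93 to 1.07) at E14.5, and in endothelium by 1.13 (1.01 to 1.24) and 1.03 (0.95 to 1.10). In the immune cells of E11.5, 5 of 9 genes with at least 50 UMIs were at least 2-fold above mesenchyme, where 5.66% of all genes were. These were *Atf3* (log2 4.13, 4.003 to 4.21), *Fos* (log2 3.84, 3.64 to 4.03), *Egr1*, *Junb* and *Jun*, and *Ier2* was at 0.08 (-0.28 to 0.43). The *Atf3* level of these immune cells alone spans 138 to 205 CPM, so the interval of its ratio is too narrow. Endothelium had 4 of 8 (background 4.9%), *Junb*, *Fos*, *Egr1* and *Jun*, and muscle 2 of 8 (background 1.34%), *Fos* at 1.65 (1.36 to 1.93) and *Egr1* at 1.29 (0.90 to 1.67). Endothelial *Fos* was 89 UMIs in 19 of 236 cells, up to 24 in a cell, and *Egr1* 40 UMIs in 15 cells, up to 17. The intervals leave out this spread over cells. After thinning, the endothelial share overlapped that of mesenchyme for *Fos*, at 6.48% (2.65 to 12.9) and 2.997%, and for *Jun*. It lay above for *Junb* and *Egr1*. The *Hspa1* sum was at 0.94 (0.38 to 1.52) for immune cells, -0.02 (-0.36 to 0.43) for endothelium and 0.22 (-0.18 to 0.71) for muscle over mesenchyme. At E14.5 immune cells had 4 of 10 genes above mesenchyme (background 6.02%), *Atf3*, *Junb*, *Fos* and *Hspa1a*, and endothelium 3 of 10 (background 6.13%), *Atf3*, *Junb* and *Ier2*. Both had 1 gene at least 2-fold lower, *Egr3*, with backgrounds of 11.8% for immune cells and 5.84% for endothelium. In the endothelium of E16.5 2 of 10 genes were higher (background 6.03%), *Atf3* at 3.20 (2.98 to 3.42) and *Junb*. There 3 were lower (background 7.2%), *Hspa1a* at -1.39 (-1.76 to -1.02), *Fosb* at -1.19 (-1.55 to -0.83) and *Egr1* at -1.16 (-1.41 to -0.92), and the early response sum was at 0.04 (-0.02 to 0.11), an interval that spans 0. *Junb* was thus above mesenchyme by at least 2-fold in endothelium at all 3 stages.

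Between E14.5 and E16.5 the early response sum went opposite ways in the 2 main lineages, as did *Fosb*, *Jun*, *Egr1* and *Ier2*. Epithelial *Fos*, at 218 and 221 CPM, and *Junb*, at 75.5 and 77.4 CPM, did not differ beyond counting error. *Atf3* and *Egr3* were lower at E16.5 in both lineages. The early response sum was higher at E16.5 in mesenchyme, by log2 0.79 (0.76 to 0.82), and lower in epithelium, at -0.92 (-0.96 to -0.89). In epithelium 2 of 10 genes were at least 2-fold lower, *Atf3* at -2.54 (-2.64 to -2.44) and *Jun* at -1.18 (-1.22 to -1.13), and 0 higher, where 0.291% of all genes were lower and 1.21% higher. In mesenchyme *Junb*, *Fosb*, *Egr1* and *Fos* were higher by 1.13, 1.12, 1.11 and 1.05, and *Egr3* was lower, at -1.62 (-1.74 to -1.48). The *Hspa1* sum was higher at E16.5 in both, by 0.54 (0.47 to 0.60) in mesenchyme and 0.42 (0.34 to 0.50) in epithelium. In endothelium 0 of 9 genes passed 2-fold in either direction (background 0.706% higher and 0.332% lower), with *Jun* at -0.71 (-0.89 to -0.54) and *Egr1* at -0.40 (-0.76 to -0.05).

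Within a stage, epithelium was above mesenchyme at E14.5 by log2 1.02 (0.99 to 1.05) for the early response sum and below it at E16.5, at -0.70 (-0.72 to -0.67). At E14.5 *Atf3* (log2 3.97, 3.85 to 4.09) and *Jun* (log2 1.42, 1.37 to 1.47) were at least 2-fold higher in epithelium and *Egr3* lower, where 3.5% of all genes were higher and 4.02% lower. At E16.5 *Atf3* was still higher (log2 1.69, 1.56 to 1.82), and *Fosb* (log2 -1.96, -2.08 to -1.85) and *Fos* (log2 -1.26, -1.31 to -1.21) were lower, with backgrounds of 3.32% and 4.13%. Epithelial markers summed to 75.3 CPM in the mesenchyme of E14.5 and 2064 in its epithelium, and mesenchymal markers to 258 in that epithelium. Their part in these ratios was not tested.

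**Figure D2:**
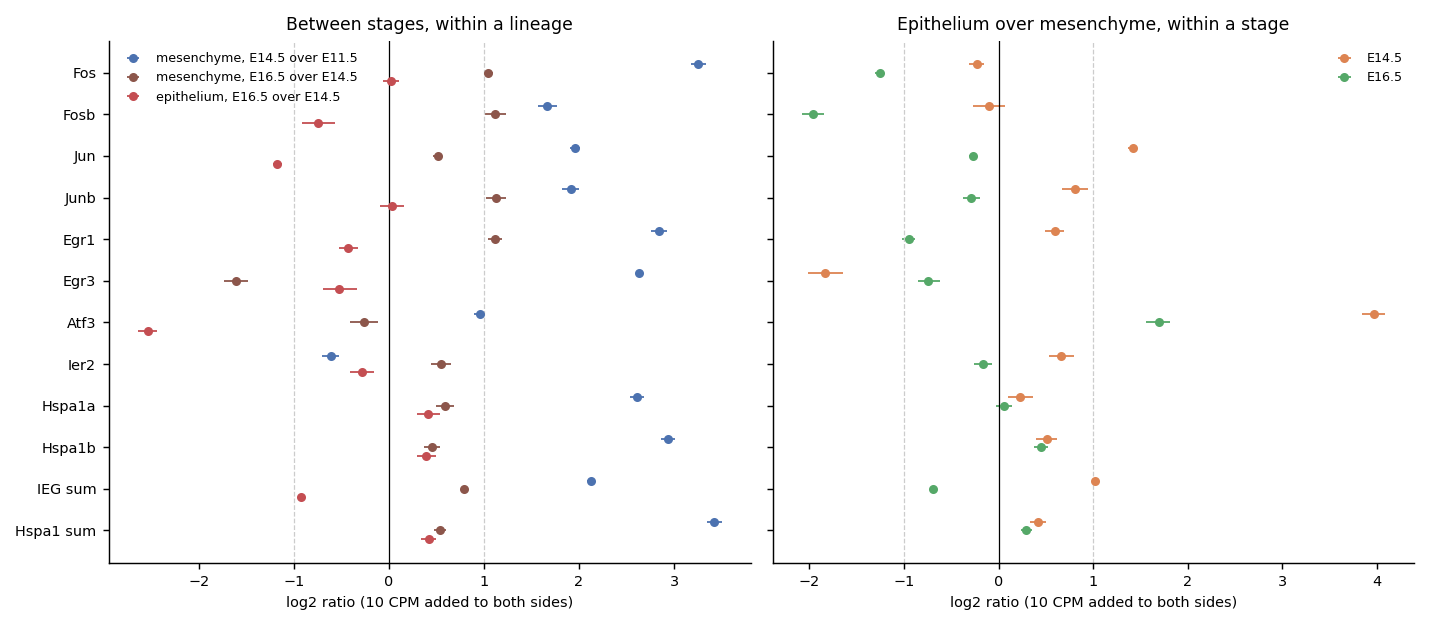
Log2 ratios of each gene and of the 2 sums, with 95% intervals that cover counting error only; dashed lines mark 2-fold. Left, stages compared within a lineage. There epithelium (red) and mesenchyme (brown) of E16.5 over E14.5 lie on opposite sides of 0 for *Fosb*, *Jun*, *Egr1* and *Ier2*. In the epithelium of E16.5, free RNA was not separated from expression of these genes. In mesenchyme the same held for all of them at E14.5, and for *Jun* and *Ier2* at E16.5. Right, epithelium over mesenchyme at E14.5 and E16.5.

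Within the mesenchyme of E14.5, most of the *Egr3* signal was in 1 of 5 clusters. Cluster 2 (1305 cells), led by *Crym*, *Dlx2*, *Lgals7* and *Fgf3*, held 116 CPM (108 to 124), with a UMI in 37.8% of its cells, and the other clusters held 3.57 to 11.51 CPM. Its log2 ratio over the other mesenchyme was 2.74 (2.57 to 2.90), where 0.952% of all genes were at least 2-fold higher in that cluster. The same cluster was lowest in *Fos*, at 87.4 CPM (80.7 to 94.4), where 3.4% of all genes were at least 2-fold lower, and in *Jun*, at 220.2 CPM (209.6 to 231), while its *Hspa1* sum was the highest, at 219 CPM (209 to 230.4). Cluster 6 (527 cells), led by *Osr1*, *Ebf2* and *Ogn*, had the reverse order. It held 459 CPM (425 to 496) of *Fos* and 22.8 CPM (15.6 to 32.2) of the *Hspa1* sum. Cluster 1 (1454 cells), led by *Ibsp*, *Igfbp5* and *Sfrp4*, held 440.4 CPM (420.5 to 461) of *Fos* and 1372 CPM (1336 to 1408) of the early response sum. Median depth was 5182 UMIs in cluster 2 and 2461 to 4293 in the others, and its part in these levels was not tested. The genes described here were left out of the variable genes, so they did not shape the clusters directly.

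The epithelium of E14.5 was uneven for *Atf3*. Cluster 4 (87 cells), led by *Shh*, *Wif1* and *Fgf4*, held 745 CPM (681 to 814) and a UMI in 66.7% of its cells, and cluster 2 (300 cells), led by *Crabp1*, *1500009L16Rik* and *Scx*, 88.7 CPM (77.5 to 101). Cluster 4 also held the most *Jun*, at 1989 CPM (1883 to 2099), and *Junb*, at 235 CPM (199.7 to 275), and its early response sum was above the other epithelium by log2 1.11 (1.04 to 1.17). Of all genes, 3.23% were at least 2-fold higher in it. Cluster 2 was lowest in *Atf3*, *Jun*, *Junb* and *Fos* of the 4 clusters, with 2.99% of all genes at least 2-fold lower, and its *Hspa1* sum was 240.1 CPM (221 to 259.9). The *Hspa1* sum of the 4 clusters ran from 168 to 240.1 CPM. Cluster 3 (286 cells) was led by mitochondrial genes, with a median of 6.31% of UMIs from them and 2974 UMIs a cell, and held 271 CPM of *Atf3* and 1240.1 of *Jun*.

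**Figure D3:**
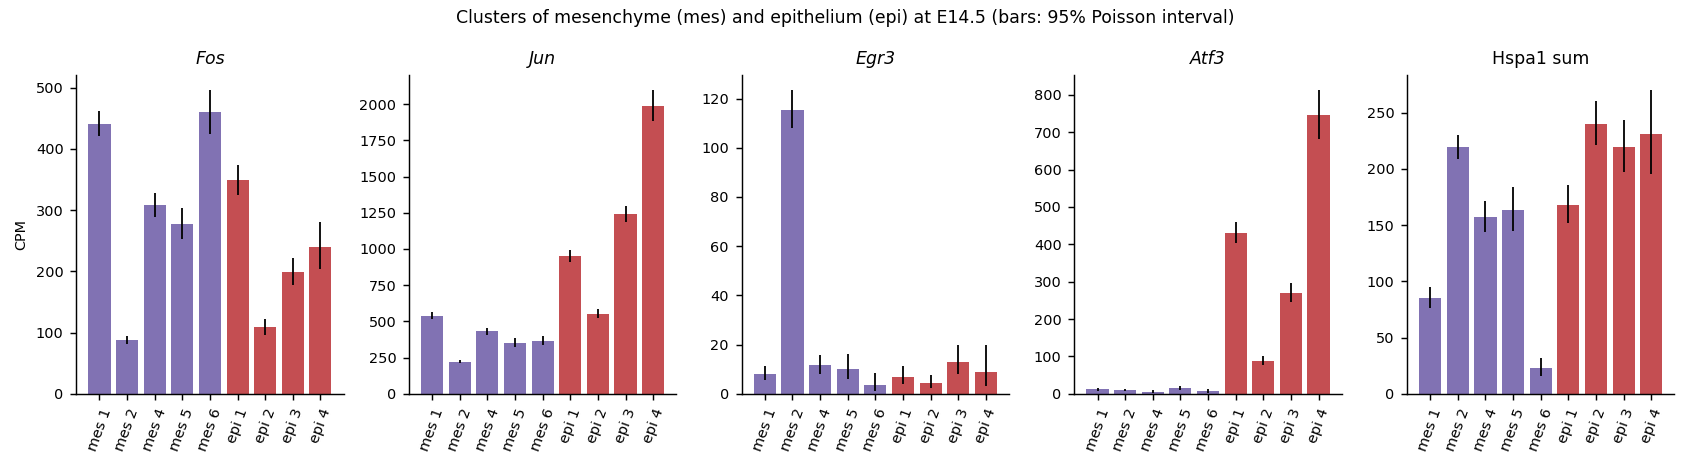
Level in CPM of 4 genes and of the *Hspa1* sum in the clusters of E14.5 mesenchyme (mes, purple) and epithelium (epi, red), with 95% Poisson intervals. *Egr3* stands in mesenchymal cluster 2, where *Fos* is lowest, and *Atf3* and *Jun* are highest in epithelial cluster 4.

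At E16.5 the mesenchymal clusters were more alike. Their early response sum was 1584, 2032 and 1209.9 CPM in clusters 1, 2 and 4, the last of which was led by the cell division gene *Nusap1*, and *Egr3* lay between 6.49 and 15.4 CPM. In the epithelium, cluster 2 (500 cells), led by *Sparcl1* and *Maf*, held the most *Atf3*, at 84.8 CPM (76.4 to 93.9), and the highest *Hspa1* sum, at 417 CPM (398 to 437). Its median share of mitochondrial UMIs was 5.93%, the highest of the 5 clusters, and its part was not tested. Cluster 3 (359 cells), led by *Stmn2* and *Igfbpl1* and with the enamel gene *Ambn* among its leading genes, held the least, at 12.0 CPM (8.71 to 16.1) and 178 CPM (165 to 192). The cluster led by *Pcp4* had 0 *Egr3* UMIs, which allows up to 1.66 CPM.

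In single cells thinned to 2000 UMIs, no early response UMI was found in 70.5% of E11.5 mesenchymal cells, 31.3% at E14.5 and 28.7% in the E16.5 cells. Cells with 3 or more of the 8 genes were 0.61%, 13.8% and 29.0% there. In epithelium they were 25.0% at E14.5 and 13.8% at E16.5, and in erythroid cells of E14.5 11.8%. An *Hspa1* UMI was in 53.4% of E16.5 epithelial cells with 3 or more early response genes and in 15.8% of those with none. The same 2 shares were 27.6% and 11.7% in E14.5 epithelium, 24.3% and 16.1% in E16.5 mesenchyme, and 21.6% and 10.0% in E14.5 endothelium. In the mesenchyme of E14.5 they were 14.4% and 16.1%. Across cells, as a description, the pair *Fos* and *Jun* had r of 0.42 in the 2488 mesenchymal cells of E16.5, and *Jun* and *Atf3* 0.38 in the 839 epithelial cells of E14.5.

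The share of mitochondrial UMIs, a sign of RNA quality, moved with the chaperones over all barcodes, and its part in their level was not tested. The *Hspa1* sum at E14.5 was 140.4, 167, 234, 354 and 615 CPM in barcodes with 0 to 2%, 2 to 5%, 5 to 10%, 10 to 20% and over 20% mitochondrial UMIs, the last of 40 barcodes. At E16.5 it ran from 167 to 493 CPM over the same bins, and at E11.5 from 3.08 to 11.1 CPM with no order. Within mesenchyme alone, the sum of E14.5 was 164, 144 and 125 CPM in the 3 lower bins, and the early response sum 863, 979.9 and 876. In E11.5 mesenchyme the early response sum was 201 to 211 CPM in every bin. In mesenchyme the early response sum was higher at E14.5 than at E11.5 within each of the 3 lower bins, and the part of RNA quality in the stage contrast was not tested.

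**Figure D4:**
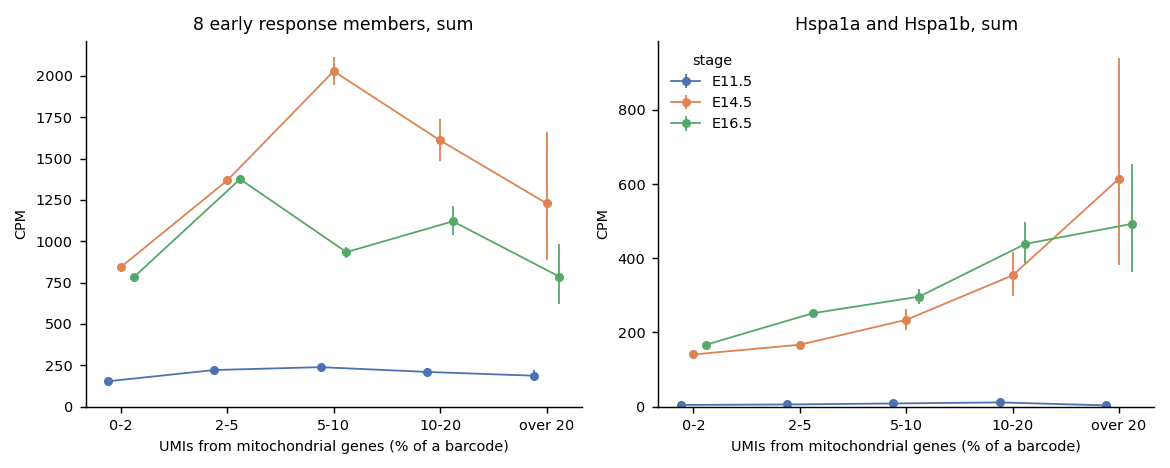
Sum of the 8 early response genes (left) and of *Hspa1a* and *Hspa1b* (right), in CPM with 95% Poisson intervals, over all barcodes of a stage in bins of the percent of UMIs from mitochondrial genes. The *Hspa1* sum is higher in each next bin at E14.5 and E16.5, and at E11.5 is at most 11.1 CPM.

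Other response genes were grouped in lists chosen with earlier results known. In mesenchyme, E14.5 over E11.5, 2.8% of all genes with at least 50 UMIs were at least 2-fold higher. Of 10 other AP-1 and ATF genes 2 were, *Fosl2* at log2 1.995 and *Batf3* at 1.83. Of 32 other early response genes 5 were higher, led by the nuclear receptor *Nr4a1* (2.64) and *Gadd45b* (2.01), and of 10 feedback inhibitors 1, the phosphatase *Dusp2* (1.10). No gene of 16 upstream kinases and factors, 20 other chaperones or 14 genes of unfolded protein and amino acid stress passed 2-fold in either direction. Among the chaperones *Hsph1*, an Hsp110 partner of Hsp70, was at -0.97, *Hsp90aa1* at -0.74, *Bag3* at 0.45 and *Hspb1* at 0.42. The 10 reference genes had 0 past 2-fold. In endothelium 9 of 22 other early response genes and 3 of 6 feedback inhibitors were higher (background 2.53%), beside 5 of 6 of the genes described here. Of 14 other chaperones 2 were lower there (background 5.0%). In immune cells 4 of 11 other early response genes, 2 of 5 AP-1 and ATF genes and 1 of 3 feedback inhibitors were higher (background 4.92%), beside 4 of 8. Of 7 genes of unfolded protein and amino acid stress, 1 was higher and 1 lower there. In mesenchyme the median was 2.29 for the genes described here and -0.09 for all genes.

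In epithelium over mesenchyme at E14.5, 3.5% of all genes were at least 2-fold higher and 4.02% lower. Of 33 other early response genes 4 were higher and 2 lower, with *Gadd45g* at 2.22 and *Nr4a1* at -1.53. Of 9 other AP-1 and ATF genes 1 was lower, and of 14 genes of unfolded protein and amino acid stress 1 was higher. Feedback inhibitors had 3 of 10 higher, among them *Spry2* (1.83) and *Dusp6* (1.54), and other chaperones 3 of 21, among them the small heat shock genes *Hspb1* (2.36) and *Hspb8* (1.56). At E16.5 *Spry2* (1.69), *Dusp6* (1.47), *Hspb1* (2.11) and *Hspb8* (1.80) were again above 2-fold (background 3.32%). Of 32 other early response genes 5 were lower (background 4.13%) and 1 higher, with *Socs3* at -1.88, and of 10 other AP-1 and ATF genes 1 was lower. In endothelium over mesenchyme, 8 of 28, 14 of 32 and 11 of 31 other early response genes were higher over the 3 stages, against the shares of all genes given above for that comparison.

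The genes outside all lists whose log2 level was most like each gene over the 13 groups, by Pearson's r as a description, were *Rorb* (0.94), *A830012C17Rik* (0.93) and *Me3* (0.92) for *Egr3*. They were *Arf3* (0.87), *Atox1* (0.83) and *Slc6a6* (0.82) for *Atf3*, *Heca* (0.95), *Ascc3* (0.92) and *S100a11* (0.92) for *Jun*, and *Ssr4* (0.94), *Cope* (0.93) and *Tmem176a* (0.91) for *Fos*. For *Hspa1a* they were *S100a6* (0.92), *Sdc4* (0.91) and *Rpl10-ps3* (0.91), and for *Hspa1b* *S100a6* (0.91), *2410006H16Rik* (0.90) and *Sdc4* (0.90). The genes most like *Ier2* were *Tecpr1* (0.92), *Peak1* (0.91) and *Lcorl* (0.91). *Fosb* was most like *Vkorc1* (0.89), *Gaa* (0.89) and *Ifitm2* (0.88), *Junb* most like *Timm10b* (0.94), *Npepl1* (0.93) and *Dad1* (0.92), and *Egr1* most like *Crebrf* (0.93), *Camk2d* (0.89) and *Tmem176b* (0.89). Among the 10 genes, *Egr1* and *Fos* had 0.95, and *Atf3* and *Egr3* 0.05. The 13 groups share stage and depth and are not independent.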

How the data were processed

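Droplet libraries of 3 embryonic stages were analysed. Per the labels and the methods, the authors aligned reads of 3′ libraries to mm10 with Cell Ranger 4.0.0 and deposited 1 table of UMI counts per stage, not normalized and before their filter on cells. The filter used here is theirs, at least 700 genes and at most 20% mitochondrial UMIs, which left 864 to 75780, 1030 to 73783 and 1034 to 123785 UMIs per cell. Of columns holding per-sample values, 0 were unused.

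Each stage was clustered on its own, on SCTransform residuals (sctransform 0.4.2, Seurat 5.3.0, R 4.3.3; 20 principal components of 2000 variable genes, Leiden resolution 0.4, leidenbase 0.1.32). The genes described and the response lists were left out of the variable genes. The highest marker score named a cluster, if it was at least 0.2 and 0.1 above the next, with at least 3 markers detected. A cluster of 170 cells at E16.5 that stayed unnamed was split by its clusters at resolution 0.8. It gave all 125 endothelial and all 45 erythroid cells of that stage. The naming rule was set after the data were seen. Scrublet (Scanpy) called 0, 0 and 2 cells doublets, so it did not work here, and no cell was removed as a doublet. The 5% of cells with the highest scores were left out as an alternative.

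Levels are CPM of summed counts with exact Poisson intervals, and shares of cells have exact Clopper-Pearson intervals, both at 95%. PCR duplicates are collapsed by UMI. Ratios have 10 CPM added. Their interval is the exact interval of the split of the summed counts, carried to that scale with the sum held fixed. It is therefore approximate, and can be too narrow where 1 of the 2 levels is small beside the 10 CPM added. The calculation was tested on simulated counts modelled on the mesenchyme of E11.5 and E14.5, and not on small groups. These counts were Poisson draws, the model that the intervals assume, so the simulation cannot show how uneven counts between cells affect them. A gene counted as past 2-fold at an absolute log2 ratio of at least 1, among genes with at least 50 UMIs over both groups. Named are the 10 genes and the 2 highest and 2 lowest of each response list per comparison. Also named are, for each of the 10, the 3 most alike genes outside the lists, genes that lead clusters, and *Ddx3y*. The genes and lists were chosen with earlier results of these data known. Gene positions are on GRCm38.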

Additional observations from a re-analysis of the deposited data

Results flagged for a closer look

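Some ratios had opposite signs in the 2 main lineages, with both intervals, which cover counting error only, clear of 0. The differences were not tested, since each stage is 1 sample. For E16.5 over E14.5, *Fosb* had a log2 ratio of -0.74 in epithelium and 1.12 in mesenchyme, *Jun* -1.18 and 0.51, *Egr1* -0.43 and 1.11, and *Ier2* -0.28 and 0.55. The sum of the 8 early response genes had -0.92 and 0.79. After thinning, the epithelial shares at E16.5 did not differ from those of erythroid cells beyond counting error for these genes. They were 2.57% and 2.22% for *Fosb*, 37.0% and 37.8% for *Jun*, 15.0% and 8.89% for *Egr1*, and 12.7% and 13.3% for *Ier2*. In the mesenchyme of E16.5 the intervals overlapped for *Jun*, at 48.6% and 37.8%, and *Ier2*, at 14.8% and 13.3%, and not for *Fosb* and *Egr1*. At E14.5 the intervals also overlapped for, among others, epithelial *Fosb*, at 6.91% and 5.56%, and mesenchymal *Ier2*, at 9.93% and 10.4%. Free RNA was not separated from expression there. For epithelium over mesenchyme, *Jun* had 1.42 at E14.5 and -0.27 at E16.5, *Junb* 0.81 and -0.29, *Egr1* 0.59 and -0.95, *Ier2* 0.66 and -0.17, and the sum 1.02 and -0.70.

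The barcodes outside the filter on cells entered the bins of mitochondrial share and the looser filters, and no comparison of lineages or stages above. They held signal as well. The early response sum in them was 204, 329 and 206 CPM over the 3 stages in order, and the *Hspa1* sum 11.4, 61.0 and 66.5 CPM, above the limit that a count of 0 allows.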

How the results depend on the processing

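No paired analysis was possible because the barcodes of a stage carry no sample, and no replicate could be left out. Across the alternatives for the 2 sums, 116 of 116 values kept their direction, and 22 moved beyond the counting interval. For single genes 574 of 580 kept it, and no ratio whose interval was clear of 0 changed sign. For the *Hspa1* sum in epithelium over mesenchyme, E16.5 (log2 0.30), the ratio was 0.24 with a resolution of 0.8, 0.39 with thinning to 2000 UMIs. For the *Hspa1* sum in epithelium, E16.5 over E14.5 (log2 0.42), the ratio was 0.57 with thinning to 2000 UMIs. For the *Hspa1* sum in mesenchyme, E14.5 over E11.5 (log2 3.42), the ratio was 4.60 with 1 CPM added, 1.89 with 50 CPM added, 3.16 with thinning to 2000 UMIs. For the *Hspa1* sum in mesenchyme, E16.5 over E14.5 (log2 0.54), the ratio was 0.45 with 50 CPM added, 0.64 with thinning to 2000 UMIs. For the early response sum in epithelium over mesenchyme, E14.5 (log2 1.02), the ratio was 1.06 with a stricter filter (1000 genes, 10% mitochondrial UMIs), 1.10 with a per-cell marker gate, 0.84 with thinning to 2000 UMIs, 0.95 with leaving out the E14.5 cluster led by mitochondrial genes. For the early response sum in epithelium over mesenchyme, E16.5 (log2 -0.70), the ratio was -0.66 with a per-cell marker gate, -0.96 with thinning to 2000 UMIs. For the early response sum in epithelium, E16.5 over E14.5 (log2 -0.92), the ratio was -0.98 with a per-cell marker gate, -1.01 with thinning to 2000 UMIs, -0.85 with leaving out the E14.5 cluster led by mitochondrial genes, -0.96 with leaving out the highest 5% of Scrublet scores. For the early response sum in mesenchyme, E14.5 over E11.5 (log2 2.12), the ratio was 2.17 with 1 CPM added, 1.94 with 50 CPM added, 2.19 with a per-cell marker gate, 2.17 with thinning to 2000 UMIs. With 50 and 1 CPM added, the genes described here at least 2-fold higher in mesenchyme, E14.5 over E11.5, were 6 and 9 in place of 8. *Fosb* and *Junb* were lost with 50 CPM, at 0.68 and 0.75, and *Atf3* passed with 1 CPM, at 3.16. Other counts moved as follows: genes described here at least 2-fold higher, epithelium over mesenchyme, E16.5 from 1 to 0 with 50 CPM added, genes described here at least 2-fold higher, mesenchyme, E16.5 over E14.5 from 4 to 0 with 50 CPM added, genes described here at least 2-fold lower, epithelium over mesenchyme, E14.5 from 1 to 0 with 50 CPM added, genes described here at least 2-fold lower, epithelium, E16.5 over E14.5 from 2 to 4 with 1 CPM added, genes described here at least 2-fold lower, mesenchyme, E16.5 over E14.5 from 1 to 0 with 50 CPM added. With 10, 1 and 50 CPM added, the counts of all genes past 2-fold were 358, 1098 and 86 higher in mesenchyme, E14.5 over E11.5, 245, 878 and 54 lower in mesenchyme, E14.5 over E11.5, 148, 602 and 31 higher in mesenchyme, E16.5 over E14.5, 46, 184 and 9 lower in mesenchyme, E16.5 over E14.5, 141, 603 and 29 higher in epithelium, E16.5 over E14.5, 34, 177 and 6 lower in epithelium, E16.5 over E14.5, 404, 940 and 77 higher in epithelium over mesenchyme, E14.5, 464, 1163 and 112 lower in epithelium over mesenchyme, E14.5, 421, 1110 and 97 higher in epithelium over mesenchyme, E16.5, 524, 1313 and 155 lower in epithelium over mesenchyme, E16.5. The 3 alternatives that leave out a cluster led by globin or mitochondrial genes, or those genes from the totals, were chosen after seeing the data. Depth limits the small groups: 26 immune and 27 mural cells at E16.5 gave wide intervals. The floor for shares of cells was taken from erythroid cells, a use that was not tested, and their level can lie above that of free RNA.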
